A study of Mus musculus with 32 samples.

Results

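The microRNA processing and silencing machinery was followed in mouse frontal cortex through 10 genes: Rnasen, Dgcr8, Xpo5, Dicer1, Tarbp2, Eif2c1, Eif2c2, Eif2c3, Tnrc6a and Tnrc6b. Every probe that carried 1 of these symbols in the deposited file was taken, which gave 17 of its 25697 probes, whose probes carry 18138 gene symbols in all. The table uses older names for 4 of the genes: Rnasen is now Drosha, and Eif2c1, Eif2c2 and Eif2c3 are now Ago1, Ago2 and Ago3. The arrays were Illumina MouseRef-8 v2.0 BeadChips, on which each probe is a 50-base oligonucleotide read by many beads and each chip carries 8 arrays, and every array was hybridized with labelled cRNA from 1 mouse. The study compared 20 ethanol-treated and 12 control mice, all female F1 hybrids labelled C57BL/6J x FVB/NJ F1. The labels give this 1 cross, whereas the study's methods name both directions, with either strain as mother. Which mice came from which direction is not given in the sources used here. The ethanol group had a bottle of 20% ethanol beside one of water for 3 h a day on 20 days, and controls were untreated. The study describes the treated mice as in early adulthood, and their age is not given further in the sources used here. Voluntary drinking sets no fixed dose, so the ethanol group is a range of intakes.

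A primary microRNA transcript is cut in the nucleus by Drosha with its partner Dgcr8, exported by Xpo5 and cut again in the cytoplasm by Dicer1 with Tarbp2. An argonaute protein takes up 1 strand of the product as a guide, and a GW182 protein, Tnrc6a or Tnrc6b among them, links the argonaute to enzymes that shorten and decap the target mRNA. In neurons, microRNAs made by this route act on dendrite growth, synaptic proteins and survival.

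The probe sequences decide which transcript of a gene is read, so those of the genes on which the results turn are given here, from the deposited table. Among the probes detected on enough arrays to be tested, both for Tnrc6a and, for Rnasen, the one at base 3717 carried calls reported below. The Rnasen probes are given whole, 5′ to 3′, and start 201 bases apart in the deposited transcript. The later one is typed I, the array maker's code for a probe of some isoforms, and the earlier one A, for all of them.
Rnasen, base 3918: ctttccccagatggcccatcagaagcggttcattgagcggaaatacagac
Rnasen, base 3717: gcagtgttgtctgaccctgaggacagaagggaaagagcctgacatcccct
The deposited coordinates are chr15:12864751-12864800 and chr15:12856008-12856057, both on the + strand. For Tnrc6a the first 30 bases of each probe are given, from chr7:130337127-130337176 and chr7:130336837-130336886 on the + strand, with starts 290 bases apart in the transcript.
Tnrc6a, base 6796: ggccctgcactttgaacaggctttccatgt
Tnrc6a, base 6506: ctttgcactgagtgatgttctccgtctaat
No lower or upper case is meaningful in these 4 sequences. The genome build of the deposited coordinates is not given in the sources used here, and whether a probe lies in coding sequence or in a UTR was not assigned.

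Of the argonaute probes, 3 for Eif2c3 overlap and share 22 bases, printed in capitals, which is why they are shown: they bear on the same stretch of 1 transcript. Their coordinates are chr4:126023909-126023958, chr4:126023903-126023952 and chr4:126023881-126023930 on the - strand.
Eif2c3, base 2498: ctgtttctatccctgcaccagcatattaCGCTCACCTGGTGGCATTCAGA
Eif2c3, base 2504: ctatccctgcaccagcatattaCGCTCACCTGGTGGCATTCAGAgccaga
Eif2c3, base 2526: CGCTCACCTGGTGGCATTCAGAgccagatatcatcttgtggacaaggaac
The Eif2c1 and Eif2c2 probes, at chr4:126116789-126116838 and, in 2 blocks, chr15:72937403-72937600, both on the - strand, lie in a region where these paralogs resemble each other. In the best alignment without gaps, 21 of 27 aligned bases were identical and are in capitals.
Eif2c1, base 2482: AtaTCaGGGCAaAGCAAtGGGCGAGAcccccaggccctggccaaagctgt
Eif2c2, base 2495: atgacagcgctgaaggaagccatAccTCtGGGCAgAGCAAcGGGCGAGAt

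The 16 arrays of chips 1 and 2 were all ethanol and the 8 of chip 4 all control. Both groups met on chip 3, with ethanol at its 4 odd positions (A, C, E and G) and control at its 4 even ones (B, D, F and H). Over all arrays, chip and treatment are therefore mixed, and on chip 3 treatment and position cannot be told apart. Between 9480 and 11544 probes were detected per array. The array of control C66, on chip 4, stood apart: it had the fewest detected probes, against 10637 or more on every other array, and the 95th percentile of its signal was 803, against 1633 or more elsewhere. Calls of member genes that rest on chip 4 are given with and without it. The cortical genes Fezf2 and Tbr1 and the neuronal genes Syt1 and Slc17a7 were detected on all 32 arrays, whereas the probes for Neurod6, Snap25 and Nefl were detected on 0. These are RNA levels of whole tissue, in which fewer cells of a type and less RNA per cell cannot be told apart.

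Probes detected on at least 24 arrays, at a detection p-value below 0.01 against negative control beads, were tested with limma: 10187 probes, among them 8 of the 17 member probes. These 8 belong to Rnasen, Dgcr8, Xpo5, Tarbp2 and Tnrc6a. The other 9 probes, for Dicer1, Eif2c1, Eif2c2, Eif2c3 and Tnrc6b, did not pass. The call rule was an adjusted p under 0.1 (an FDR of 10%) together with a change of 1.1-fold or more. Over all arrays, 2 of the 8 tested member probes were called, both for Tnrc6a and both higher in ethanol-treated mice, where 16.5% of all tested probes were called, 8.5% as higher and 7.98% as lower. The balance of all calls depended on the scaling: 866 probes were higher and 813 lower over all arrays, against 1235 and 117 with median scaling, and on chip 3 817 and 861 against 372 and 737. At an FDR below 1%, 0 member probes passed by limma, against 8.24% of all tested probes. The median log2 difference over the 8 probes was 0.02, beside -0.0035 over all tested probes. The values of these probes by chip and group are plotted first, followed by the sizes of the differences.

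**Figure D1:**
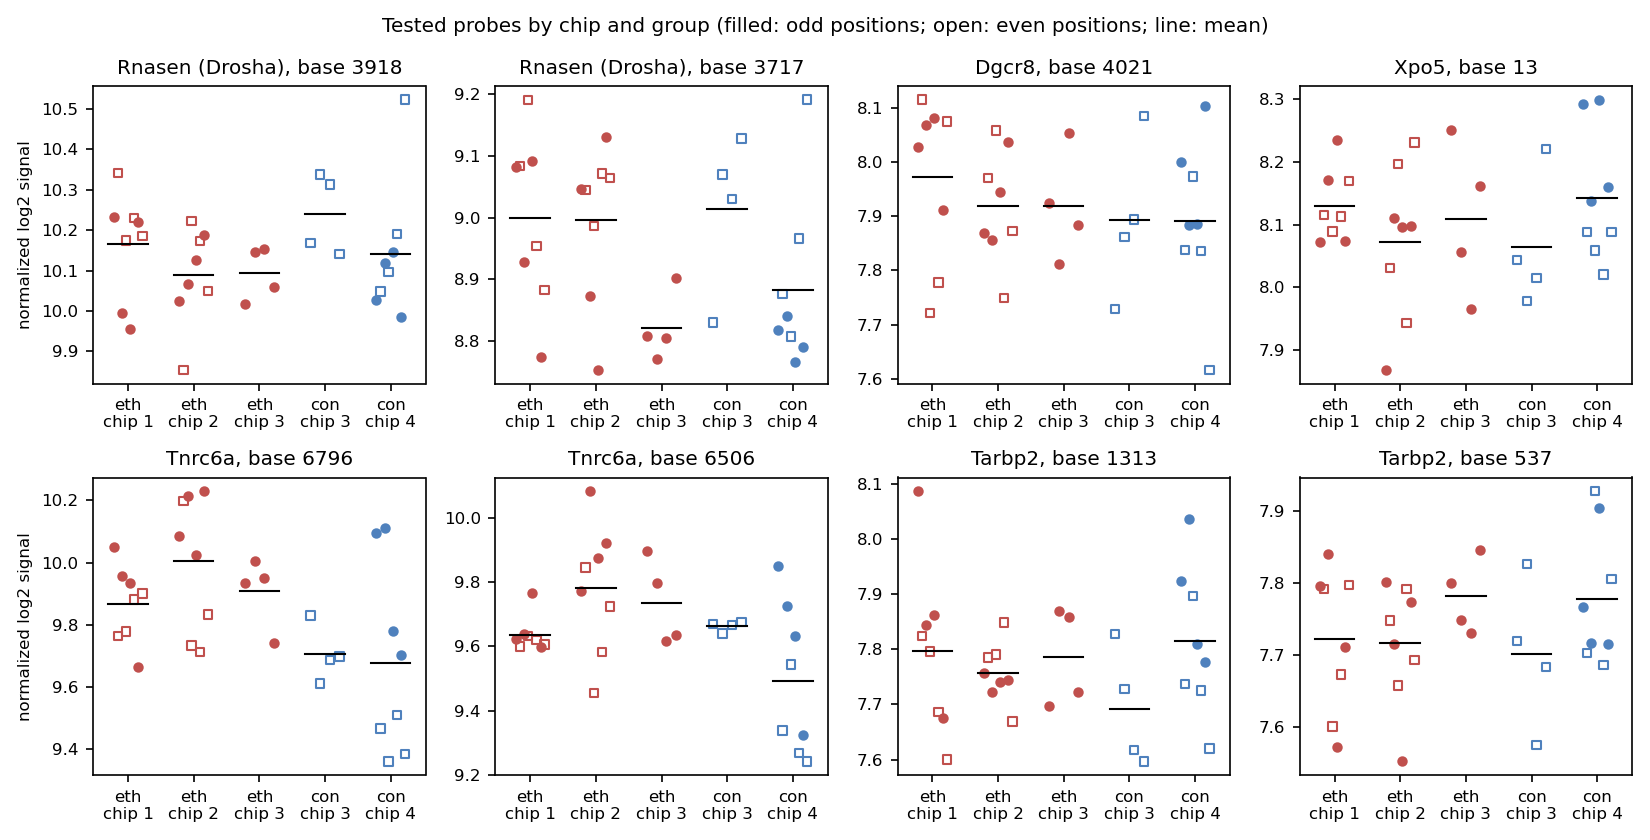
Normalized log2 signal of the 8 tested probes on each array (vertical axis, scaled separately per panel, not starting at 0) by group and chip (horizontal axis: eth, ethanol; con, control), with filled circles at odd positions, open squares at even positions and a line at the mean; base is the start of the probe in its transcript. At base 6796 of Tnrc6a the 4 even arrays of chip 4 (9.36 to 9.51) sit at the bottom of the range, and the 2 Rnasen panels show 1 control array of chip 4, C66, far above the other 7.

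Tnrc6a, the GW182 protein of the silencing complex, was the 1 member gene called over all arrays. At base 6796 the log2 signal had a lowest value of 9.67, a median of 9.93 and a highest of 10.23 in the 20 ethanol-treated mice, and 9.36, 9.69 and 10.11 in the 12 controls. The groups overlapped, although 19 of 20 ethanol-treated mice exceeded the control median and 5 controls lay below every ethanol-treated mouse. The log2 difference was 0.24 (SE 0.07, 95% interval 0.11 to 0.38), or 1.18-fold, with a limma adjusted p of 0.0104.

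At base 6506 the ethanol-treated mice had 9.45, 9.64 and 10.08 as lowest, median and highest log2 signal, and the controls 9.24, 9.64 and 9.85. No more than 10 of 20 ethanol-treated mice exceeded the control median, and the groups differed at their ends: 4 ethanol-treated mice lay above all controls and 4 controls below all ethanol-treated mice. The log2 difference was 0.17 (SE 0.06, 95% interval 0.05 to 0.29), or 1.12-fold, with a limma adjusted p of 0.0440. Without C66 the difference was 0.14 and the call was lost (limma adjusted p = 0.106), while that of the probe at base 6796 was kept at 0.22 (limma adjusted p = 0.0270).

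Between mice of the same chip and group, both Tnrc6a probes varied together. After the mean of each chip and group was removed, Pearson's r was 0.770 and Spearman's rho 0.727 over the 32 arrays (two-sided permutation test within chip and group with 100000 resamples, p = 8e-05 and 0.00024; adjusted over the 3 pairs of probes tested, 0.00024 and 0.00072). With the 2 arrays farthest from the median left out, r was 0.682. Neither the centring nor the permutations took account of odd and even positions, by which both probes differed, as given below. The part of position in this agreement was not tested. For the other pairs of tested probes of 1 gene r was 0.324 for Rnasen (permutation p = 0.11, adjusted 0.16; rho 0.247, p = 0.21, adjusted 0.31) and 0.126 for Tarbp2 (permutation p = 0.55, adjusted 0.55; rho 0.179, p = 0.37, adjusted 0.37). Without their 2 farthest arrays these were 0.118 and 0.0838. Of 7921 other tested genes, those whose centred values correlated most with Tnrc6a at base 6796 over the 32 arrays were Dgkg, a diacylglycerol kinase (r = 0.886), Golga2, a Golgi matrix protein (r = 0.867), and Ppap2b, a lipid phosphatase (r = 0.864); these arrays share chips and positions, and no test is attached to them.

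The Tnrc6a signal differed between odd and even positions. On every chip the mice at odd positions carried lower label numbers than those at even positions. Position and the order of the mouse numbers therefore cannot be told apart, here or in the fits with a position term. What that order stands for is not given in the sources used here. On chips 1, 2 and 4, where treatment does not vary within a chip, the probe at base 6796 was higher at odd than at even positions by 0.28 on the log2 scale (SE 0.06, 95% interval 0.15 to 0.41, limma adjusted p = 0.0063), and the probe at base 6506 by 0.20 (SE 0.06, 95% interval 0.08 to 0.31, limma adjusted p = 0.0212). These were the 2 of 8 member probes below an FDR of 5% in this comparison, where 12.8% of all tested probes were. Without C66 the differences were 0.26 and 0.18, both still below 5%. Their size varied by chip. At base 6796 the means at odd and even positions were 9.90 and 9.83 on chip 1 and 10.14 and 9.87 on chip 2. On chip 4 they were 9.92 and 9.43. At base 6506 they were 9.66 and 9.61, 9.91 and 9.65, and 9.63 and 9.35 on chips 1, 2 and 4. Whether the chips differed in this was not tested. On chip 4 the 4 controls at odd positions had 10.09, 10.11, 9.78 and 9.70 at base 6796, and the 4 at even positions had 9.47, 9.36, 9.51 and 9.39. The 2 sets of controls did not overlap, and the odd ones lay within the range of the ethanol-treated mice.

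On chip 3, where both groups were hybridized, the probe at base 6796 read 9.94, 10.01, 9.95 and 9.74 in the 4 ethanol-treated mice and 9.83, 9.61, 9.69 and 9.70 in the 4 controls. All but the lowest ethanol-treated mouse lay above all controls. The log2 difference was 0.20 (SE 0.07, 95% interval 0.05 to 0.35) and was called (limma adjusted p = 0.0841), where 8.02% of all tested probes were called as higher. Median scaling ended the call (0.18, limma adjusted p = 0.285), as did normexp background correction (0.23, limma adjusted p = 0.140) and a test of all probes (limma adjusted p = 0.105). It was also lost without A46, A47, A49, C54, C55 or C56 (limma adjusted p from 0.134 to 0.210), with differences from 0.17 to 0.26 as each array was left out. At base 6506 the ethanol-treated mice read 9.89, 9.80, 9.62 and 9.64 and the controls 9.67, 9.64, 9.67 and 9.68. The 4 controls lay between the 2 higher and the 2 lower ethanol-treated mice, and the difference of 0.07 (95% interval -0.08 to 0.22) was not called (limma adjusted p = 0.555). With chips 1 and 2 set against chip 4 both Tnrc6a probes were called, with log2 differences of 0.26 (SE 0.09, limma adjusted p = 0.0305) and 0.22 (SE 0.07, limma adjusted p = 0.0296), and each of the 16 ethanol arrays exceeded the chip 4 median at both probes. Here 25.8% of all tested probes were called, and on chip 3 16.5%. Without C66 both remained called, at 0.22 and 0.18.

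Within positions, the even arrays of chips 1 and 2 exceeded the even arrays of chip 4 by 0.42 at base 6796 (limma adjusted p = 0.0023) and 0.28 at base 6506 (limma adjusted p = 0.0191). Without C66 these were 0.40 and 0.25 (limma adjusted p = 0.0119 and 0.0743), both called, where 9.19% of all tested probes were called. Among the odd arrays the differences were 0.10 (limma adjusted p = 0.562) and 0.15 (limma adjusted p = 0.343), neither called. All tested probes were called at 15.6% and 16.8% in these sets. With position alone as a term, over all arrays, the probe at base 6796 was still called at 0.19 (limma adjusted p = 0.0261) and that at base 6506 was not, at 0.13 (limma adjusted p = 0.102). Without C66 this was so too, at 0.17 (limma adjusted p = 0.0509) and 0.11 (limma adjusted p = 0.181). With chip as a random block these were 0.23 (called, limma adjusted p = 0.0891) and 0.15 (limma adjusted p = 0.231), and without C66 neither was called, at 0.21 (limma adjusted p = 0.146) and 0.12 (limma adjusted p = 0.339). With chip as a fixed block, the differences were 0.20 (95% interval -0.06 to 0.47) and 0.07 (-0.14 to 0.29), and with chip and position together -0.08 (-0.32 to 0.17) and -0.12 (-0.34 to 0.09). In these fits 0 of 8 member probes were called by limma, with 6.3% and 0.0687% of all tested probes. The part of position in the Tnrc6a difference over all arrays was not tested beyond these fits.

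**Figure D2:**
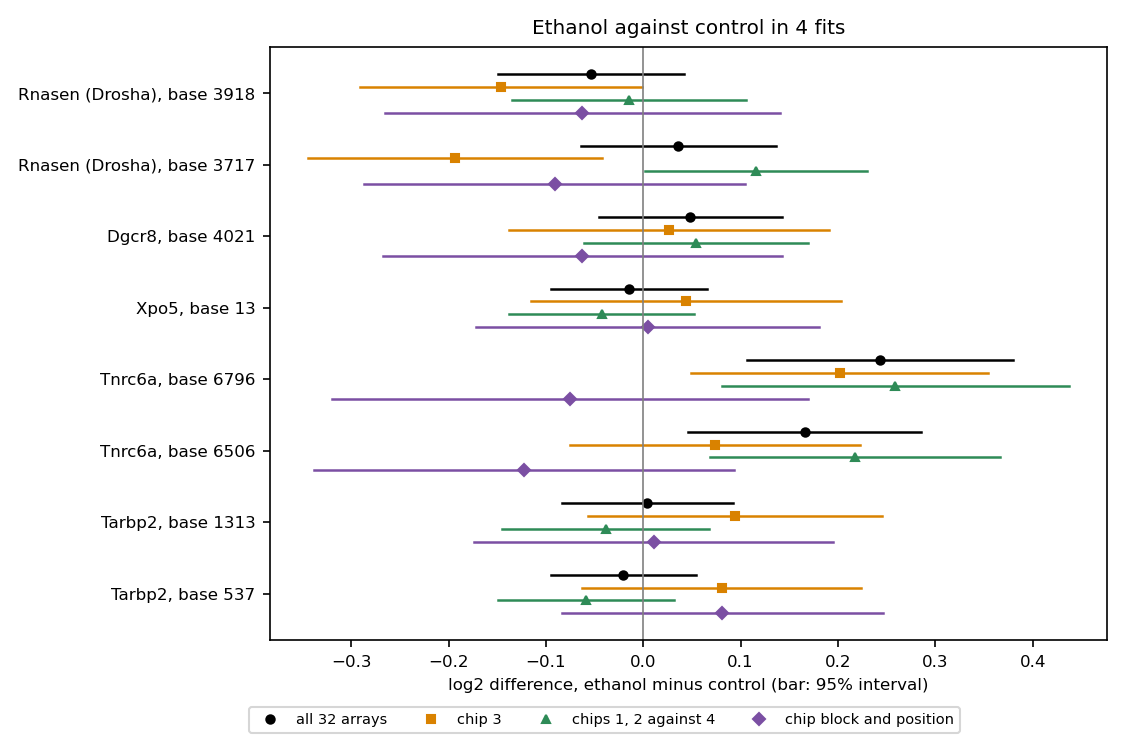
Log2 difference, ethanol minus control (horizontal axis; bars are 95% intervals), of the 8 tested probes (vertical axis; base is the start of the probe in its transcript) over all 32 arrays (circles), on chip 3 (squares), on chips 1 and 2 against chip 4 (triangles), and over all arrays with chip and position in the fit (diamonds). Both Tnrc6a probes lie above 0 in the first 3 fits and below it, with intervals that include 0, in the fourth, and Rnasen at base 3717 lies below 0 on chip 3 and above it on the other chips. The fourth fit is the chip 3 difference less the odd-to-even difference of chips 1, 2 and 4.

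Rnasen encodes Drosha, the nuclease of the Microprocessor. Over all arrays neither of its probes was called. At base 3717 the ethanol-treated mice had 8.75, 8.97 and 9.19 as lowest, median and highest log2 signal and the controls 8.77, 8.86 and 9.19, a difference of 0.04 (95% interval -0.06 to 0.14, limma adjusted p = 0.660). At base 3918 they had 9.85, 10.15 and 10.34 against 9.99, 10.14 and 10.52, a difference of -0.05 (95% interval -0.15 to 0.04, limma adjusted p = 0.457). The groups overlapped almost wholly at both probes.

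On chip 3 the probe at base 3717 was called lower in ethanol-treated mice, the 1 decrease called among the members over all arrays, on chip 3 or on the other chips. The ethanol-treated mice read 8.81, 8.77, 8.81 and 8.90 and the controls 8.83, 9.07, 9.03 and 9.13. No ethanol-treated mouse reached the median of the controls, and 1 control, C52, lay among the ethanol-treated mice. The log2 signal fell by 0.19 (SE 0.07, 95% interval -0.34 to -0.04; limma adjusted p = 0.0944), or 1.14-fold, where 8.45% of all tested probes were called as lower. Normexp (-0.25, limma adjusted p = 0.126) and a test of all probes (limma adjusted p = 0.118) ended the call. Leaving out A46, A47, A49, C54, C55 or C56 ended it too (limma adjusted p from 0.157 to 0.215), and the difference stayed between -0.25 and -0.16. At base 3918 the values were 10.02, 10.15, 10.15 and 10.06 against 10.17, 10.34, 10.31 and 10.14, and the difference of -0.15 (95% interval -0.29 to -0.0017) was not called (limma adjusted p = 0.181).

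On the other chips the probe at base 3717 had a difference of 0.12 in the opposite direction (95% interval 0.0016 to 0.23), which was not called (limma adjusted p = 0.132). C66 read 9.19 there, against 8.77 to 8.97 in the other 7 controls of chip 4. Without it the difference was 0.16 and was called as higher (limma adjusted p = 0.0302), where 23.3% of all tested probes were called. The difference between the effect on chip 3 and that on the other chips was -0.31 (SE 0.10, 95% interval -0.52 to -0.10), with a limma adjusted p of 0.0502, just past the threshold of 5% at which 9.94% of all tested probes passed. Without C66 it was -0.35 and passed (limma adjusted p = 0.0142). At odd positions of chips 1, 2 and 4 this probe was 0.10 lower than at even positions (95% interval -0.20 to -5.7e-05, limma adjusted p = 0.174), the direction of the chip 3 difference. Without C66, which sits at an even position, the odd-to-even difference was -0.08, with an interval that includes 0 (-0.17 to 0.02, limma adjusted p = 0.298).

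Markers of other cells moved on chip 3 as well. Of the 6 oligodendrocyte genes on the list, all 6 were detected, their median log2 difference was -0.32, and their mean log2 level was between 9.76 and 9.97 in ethanol-treated mice and between 9.94 and 10.47 in controls. Of the 4 olfactory bulb genes 2 were detected, Doc2g and Th, with a median difference of 0.46 and a mean level between 7.97 and 8.36 against 7.59 and 8.003. Over all arrays the median differences of the oligodendrocyte and olfactory bulb lists were -0.13 and 0.13, and their levels ranged over 9.69 to 10.82 and 7.43 to 8.92 in ethanol-treated mice and over 9.73 to 10.47 and 7.39 to 8.69 in controls. For the lists of neurons, astrocytes, microglia, cortex, striatum, blood and sex-linked genes the chip 3 medians lay between -0.17 and 0.19, but single markers differed by more and in both directions. On chip 3 the difference was 0.59 and 0.35 at both probes of Gad1, of inhibitory neurons, -0.46 for Slc17a7 and -0.52 for Tbr1, of excitatory neurons, and 0.56 for Aqp4, of astrocytes. The mean level of the 5 detected astrocyte genes of 6 ran from 11.09 to 11.17 in the ethanol-treated mice of chip 3 and from 10.87 to 11.001 in its controls, that of the 4 detected neuron genes of 6 from 12.41 to 12.48 and from 12.28 to 12.42, and that of the 3 detected cortex genes of 5 from 8.88 to 9.09 and from 9.06 to 9.23. Of 3 choroid plexus genes in the file, none passed the detection filter, with Folr1 and Kl detected on 0 arrays. The part of these cells in the Rnasen and Tnrc6a differences was not tested.

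Dgcr8, the RNA-binding partner of Drosha, had 1 probe, detected on 31 arrays. The ethanol-treated mice had 7.72, 7.93 and 8.11 as lowest, median and highest log2 signal and the controls 7.62, 7.88 and 8.10. These ranges nearly coincided, and the difference was 0.05 (95% interval -0.05 to 0.14, limma adjusted p = 0.502). On chip 3 it was 0.03 (-0.14 to 0.19) and on the other chips 0.05 (-0.06 to 0.17), or 0.015 without C66, the lowest control.

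Xpo5, the export receptor for precursor microRNAs, had 1 probe, detected on all 32 arrays. Its log2 signal had a lowest, median and highest value of 7.87, 8.10 and 8.25 in ethanol-treated mice and of 7.98, 8.09 and 8.30 in controls. The groups overlapped throughout, and the difference was -0.01 (95% interval -0.10 to 0.07, limma adjusted p = 0.837). It was 0.04 on chip 3 (-0.12 to 0.20) and -0.04 on the other chips (-0.14 to 0.05), or -0.05 without C66. The deposited table gives this probe no gene ID or coordinates, and it starts at base 13 of its transcript, so its gene rests on the symbol alone.

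Tarbp2, which binds double-stranded RNA beside Dicer, had 2 tested probes, detected on 30 and 29 arrays. At base 1313 the lowest, median and highest log2 signals were 7.60, 7.77 and 8.09 in ethanol-treated mice and 7.60, 7.76 and 8.04 in controls, a difference of 0.0044 (95% interval -0.08 to 0.09, limma adjusted p = 0.959). At base 537 they were 7.55, 7.75 and 7.85 against 7.57, 7.72 and 7.93, a difference of -0.02 (95% interval -0.09 to 0.05, limma adjusted p = 0.747). On chip 3 all 4 ethanol arrays exceeded the control median at both probes, with differences of 0.09 (-0.06 to 0.24) and 0.08 (-0.06 to 0.22), neither called. On the other chips the differences lay on the other side of 0, at -0.04 (-0.14 to 0.07) and -0.06 (-0.15 to 0.03), with 6 and 8 of 16 ethanol arrays above the control median, and neither was called. For Dgcr8, Xpo5 and Tarbp2, the 95% intervals over all arrays lay within 0.15 of 0 on the log2 scale at every tested probe. They were wider with chip in the fit, reaching 0.26 for Tarbp2 at base 1313 and 0.21 for Dgcr8 with chip as a fixed block, and -0.27 for Dgcr8 with chip and position.

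The remaining members were near the background of the array. Dicer1, the cytoplasmic nuclease, was detected in 14 of 20 ethanol-treated mice and 8 of 12 controls, with 7.52, 7.68 and 7.83 as lowest, median and highest log2 signal against 7.59, 7.69 and 7.87. The ranges overlapped almost wholly. In a fit over all probes of the file the difference was -0.02 (95% interval -0.09 to 0.06, limma adjusted p = 0.870). On chip 3 the difference was -0.11 (limma adjusted p = 0.523) and on the other chips 0.03 (limma adjusted p = 0.785), neither called. The level of Dicer1, and that of the next genes, lay where the signal of a probe cannot be told from that of negative controls on part of the arrays, which limits what a difference in signal says of the RNA.

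Of the argonautes, which hold the guide strand, Eif2c2 encodes the one that can cut its target. It was detected in 11 of 20 ethanol-treated mice and 8 of 12 controls, with 7.32, 7.65 and 7.83 against 7.45, 7.75 and 7.94 as lowest, median and highest log2 signal. The ranges overlapped, and in the fit over all probes the difference was -0.07 (95% interval -0.18 to 0.03, limma adjusted p = 0.489). Eif2c1 was detected on 0 arrays: its signal was not well above background in either group, and no fold is given.

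Eif2c3 had 4 probes, detected on 11, 5, 3 and 1 arrays at bases 2498, 2504, 2526 and 658. At base 2504 all 20 ethanol-treated mice exceeded the control median, with lowest, median and highest values of 7.38, 7.51 and 7.86 against 7.22, 7.37 and 7.54. The measured means were 7.54 and 7.38 (limma adjusted p = 0.0117 in the fit over all probes, within the call rule there), but the probe was detected in 5 of 20 ethanol-treated mice and 0 of 12 controls. The dimmest detected signals of the control arrays averaged 7.62, above the mean of the ethanol-treated mice, so no fold is given. The probe at base 2498 was detected in 10 of 20 ethanol-treated mice and 1 of 12 controls, and that at base 2526 in 2 and 1. These probes, which overlap the one at base 2504, were not called. At base 2498, which shares 44 of 50 bases with base 2504, the difference was 0.08 (95% interval -0.00067 to 0.17, limma adjusted p = 0.272). At base 2526, which shares 28, it was -0.02 (-0.10 to 0.05, limma adjusted p = 0.808). On chip 3 these were 0.15 and 0.13 (limma adjusted p = 0.328 and 0.309). On the other chips they were 0.05 and -0.08 (limma adjusted p = 0.623 and 0.298), so base 2526 changed sign, and neither probe was called. At base 2504 the limma adjusted p was 0.346 on chip 3 and 0.0386 on the other chips, where it was within the call rule. At base 658 the probe was detected in 1 ethanol-treated mouse and 0 controls.

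Tnrc6b, the second GW182 member, was detected at base 4380 in 5 of 20 ethanol-treated mice and 2 of 12 controls, with 7.40, 7.52 and 7.70 against 7.22, 7.47 and 7.74 as lowest, median and highest log2 signal. The control range enclosed the other, and the difference was 0.07 (95% interval -0.02 to 0.15, limma adjusted p = 0.416 in the fit over all probes). On chip 3 the difference was -0.07 (limma adjusted p = 0.730) and on the other chips 0.12 (limma adjusted p = 0.123), neither called. At base 4841 it was detected on 0 arrays.

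**Figure D3:**
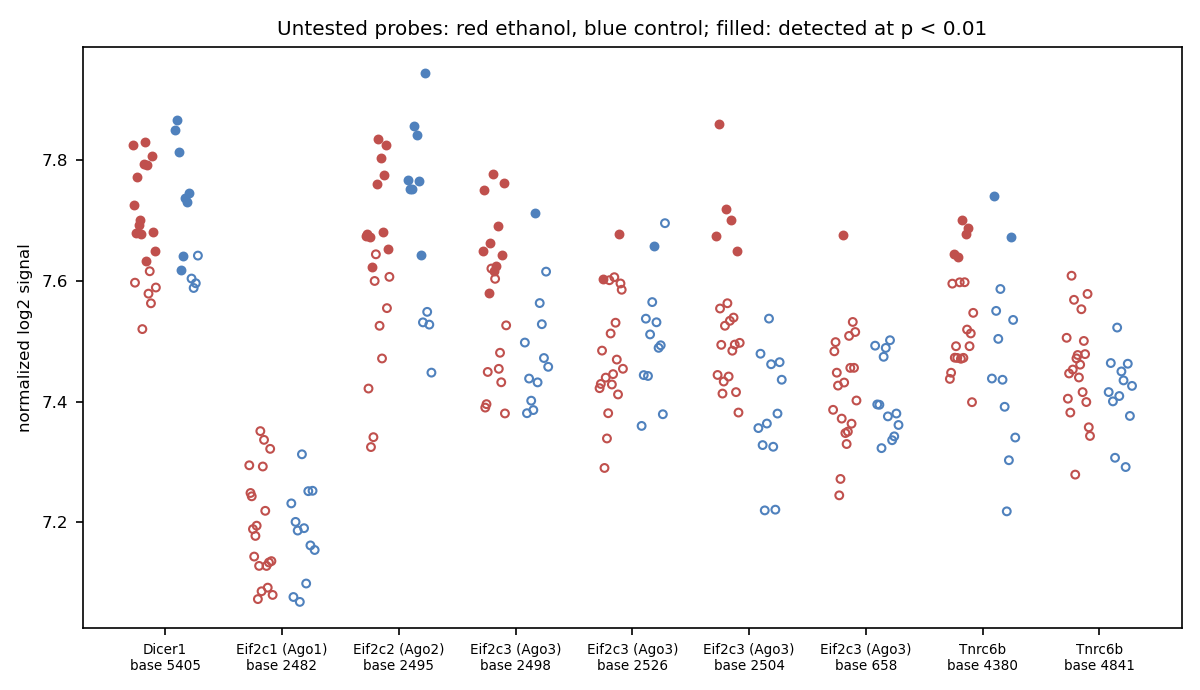
Normalized log2 signal (vertical axis, not starting at 0) of the 9 member probes that did not pass the detection filter (horizontal axis; base is the start of the probe in its transcript), 1 point per mouse, red for ethanol and blue for control, filled where the probe was detected at p < 0.01. Eif2c1 and the second Tnrc6b probe have no filled point, and Eif2c3 at base 2504 has 5 filled ethanol points and 0 filled control points.

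Around the 10 members, 70 further genes of the pathway were listed, of which 57 were on the table and 44 had a tested probe. Over all arrays 10 of these 44 genes were called, 8 higher and 2 lower in ethanol-treated mice, and 34 were not. By probe this is 16.4% of 61, beside 16.5% of all tested probes, and the median log2 difference was 0.02. Among the paralogs and the partner of the members, Tnrc6c, the third GW182 gene, rose by 0.20 (SE 0.05, limma adjusted p = 0.0048; above the control median in 19 of 20 ethanol-treated mice). Prkra, which like Tarbp2 binds Dicer, had a difference of -0.03 (95% interval -0.12 to 0.06, limma adjusted p = 0.679), and both probes of Eif2c4, the fourth argonaute, were detected on 0 arrays.

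Of 10 genes for argonaute and Dicer cofactors tested, 3 rose and 0 fell. Pum2, a Pumilio protein that binds 3′ ends of target mRNAs, rose by 0.30 (SE 0.06, limma adjusted p = 0.000442; 19 of 20 above the control median), Ddx20, a helicase found with argonautes, by 0.17 (SE 0.04, limma adjusted p = 0.0027; 20 of 20), and Ddx6, a helicase between deadenylation and decapping, by 0.26 (SE 0.10, limma adjusted p = 0.0485; 14 of 20). Of 14 deadenylation genes 2 rose and 2 fell. Cnot3, a subunit of the CCR4-NOT deadenylase, fell by 0.24 (SE 0.05, limma adjusted p = 0.000603), with 1 of 20 ethanol-treated mice above the control median. Tob1, an adaptor of the same complex, fell by 0.16 (SE 0.05, limma adjusted p = 0.0166), with 3 of 20 above it. Cnot4, a ubiquitin ligase tied to the complex, rose by 0.15 (SE 0.05, limma adjusted p = 0.0254; 16 of 20) and Usp52, the Pan2 deadenylase, by 0.16 (SE 0.05, limma adjusted p = 0.0330; 16 of 20). Each of these was called at 1 of its 3 tested probes. The other 2 had differences of 0.10 and 0.11 for Cnot4 (limma adjusted p = 0.313 and 0.202) and of -0.0038 and 0.038 for Usp52 (limma adjusted p = 0.960 and 0.570). Zcchc6, a terminal uridylyltransferase, was 1 of 2 tested genes for precursor and microRNA stability, and rose by 0.15 (SE 0.04, limma adjusted p = 0.0118; 18 of 20). Of 9 nuclear processing and export genes 1 rose, Ran, the GTPase that Xpo5 needs, by 0.20 (SE 0.08, limma adjusted p = 0.0688; 17 of 20), and of 7 decapping and decay genes 0 were called by limma.

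On chip 3 the pathway probes called were 3 higher and 4 lower, or 11.5% of the 61, beside 16.5% of all tested probes. Of the 10 genes called over all arrays, Cnot3 was also called there at the same probe, at -0.23 (limma adjusted p = 0.0771), and Cnot4 at another of its probes, at 0.32 (limma adjusted p = 0.0619). Pum2 had a difference of 0.07 there against 0.42 on the other chips, and these differed from each other (limma adjusted p of the difference = 0.0199). Ran had -0.18 on chip 3 and 0.37 on the other chips, which also differed (limma adjusted p of the difference = 0.0029). Without C66 both differences between chips held (limma adjusted p = 0.0268 for Pum2 and 0.0037 for Ran). Without C66, 5 of the 10 genes stayed called, namely Pum2, Ddx20, Cnot3, Tob1 and Tnrc6c, where 14.1% of all tested probes were called. With chip as a fixed block 2 pathway genes were called, and none of the 10.

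**Figure D4:**
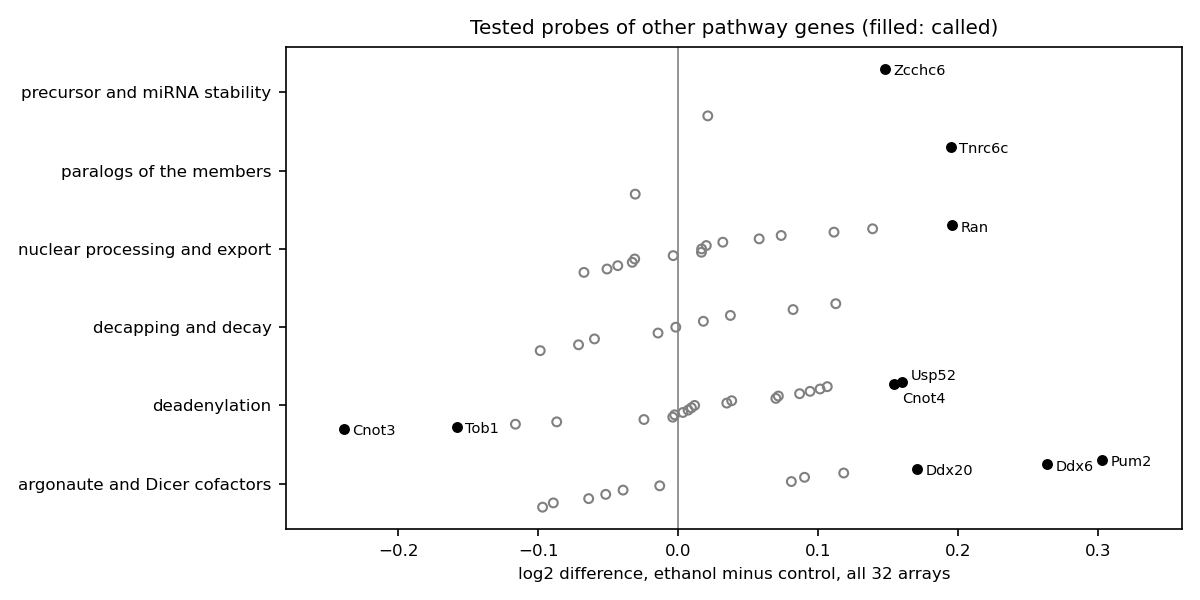
Log2 difference, ethanol minus control, over all 32 arrays (horizontal axis) of the 61 tested probes of the other pathway genes, by group of the list (vertical axis; height within a group only separates points); filled points with a name were called. The points are spread about 0, with 8 called probes to the right and 2, Cnot3 and Tob1, to the left.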

How the data were processed

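Labelled cRNA from the frontal cortex (FCtx) of 32 mice, 20 ethanol-treated and 12 control, was read on 1 array each. The authors deposited a bead summary table with no normalization between arrays: the deposited intensity is the mean bead signal of a probe, and a detection p-value against negative control beads is deposited beside it. Bead counts per probe and the standard errors of the signals, 2 other kinds of value that the authors deposited, set the transform below. How background was handled before deposit is not given in the sources used here. Mice, chips and positions come from the labels, 0 value columns were left without a mouse, and the labels do not tie arrays to RNA extraction batches.

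From these, a variance-stabilizing transform (bead SD modelled as a linear part plus a constant part, fitted to the median SD in 40 bins of signal) and quantile normalization were computed in R 4.3.3, after the steps named in the study's methods; the lumi package named there was not run. An earlier form of the transform was replaced after its results had been seen, because at the median signal of undetected probes its model gave a bead SD of 103 where 46.5 was measured (medians over arrays; 50.0 with the form used). The counts of member genes called did not change, while that of all probes called rose (values in the closing section). Limma 3.58.1 was fitted over all probes tested with Benjamini-Hochberg adjustment, with no covariate unless named. The fits and the transform were tested on simulated data. Figures were drawn in Python with matplotlib 3.10.9.

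The members, the pathway and marker lists, and the tests were chosen with earlier results of these data known. Named were all members, the called pathway genes with the 8 smallest p-values plus Eif2c4, Tnrc6c and Prkra, and the 3 closest genes to the member with the smallest p-value; Ddx6 and Ran were named after their values were seen. Of the member genes, 9 were matched to RefSeq by gene ID and 1 by symbol. Alternatives were log2, normexp with an offset of 16, median scaling, other detection filters, array weights, chip and position terms and leaving out arrays; leaving out C66 in the comparisons between chips or positions, in the fits with chip or position terms and in the pathway, the sets of odd and even positions and the earlier transform were added after seeing the data. The number of arrays limits the precision.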

Additional observations from a re-analysis of the deposited data

Results flagged for a closer look

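Each tested member probe was checked in each chip and group for 1 array far from the others, by the gap to its neighbour over the range of the group. Of 40 such groups 3 stood out, where chance gives about 1 in 20. The groups share arrays between probes, so they are not independent and the count is not weighed against that rate. For Rnasen on chip 4, control C66 read 9.191 at base 3717, above 8.766 to 8.966 in the other 7 controls, and 10.52 at base 3918, above 9.986 to 10.19. C66 is the dim array described above, and its part in these values was not tested. For Tnrc6a at base 6506 on chip 1, the ethanol-treated mouse A9 read 9.766, above 9.598 to 9.637 in the other 7 mice.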

How the results depend on the processing

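No paired analysis was possible because the mouse numbers of the labels are not shared between the groups. Over all arrays, where 1 member gene, Tnrc6a, was called, log2 of the signal, normexp, median scaling, only probes detected on all arrays, array weights, chip as a random block, position alone with or without C66, leaving out C66 and the earlier transform also gave 1. All probes gave 2, the other gene being Eif2c3, and an FDR below 1%, chip as a fixed block, that block with position, and, without C66, both of these and chip as a random block gave 0. On chip 3, where 2 genes were called, median scaling gave 1, normexp, all probes and an FDR below 1% gave 0, and leaving out 1 array gave 0 to 2. For chips 1 and 2 against chip 4, where 1 gene was called, median scaling, all probes, array weights and leaving out C66 gave 2, and an FDR below 1% and odd positions alone gave 0. The difference between chips had 0 member genes below 5%, and 1, Rnasen, with median scaling or without C66. The pathway count of 10 was 2 with chip as a fixed block and 5 without C66, and the agreement of the Rnasen probes fell to r = 0.0303 without C66. The cause was not tested.

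These log2 differences changed sign. Over all arrays, median scaling gave 0.045 for Rnasen at base 3918, 0.014 for Tarbp2 at base 537 and 0.035 for Xpo5. Chip as a fixed block gave -0.19 for Rnasen at base 3717, 0.081 for Tarbp2 at base 537 and 0.044 for Xpo5, and as a random block -0.014 for Rnasen at base 3717 and 0.0016 for Tarbp2 at base 537. With that fixed block and position they were -0.062 for Dgcr8, -0.091 for Rnasen at base 3717, 0.081 for Tarbp2 at base 537, -0.075 and -0.12 for Tnrc6a at bases 6796 and 6506, and 0.0044 for Xpo5. For Tarbp2 at base 1313, position alone gave -0.020 and leaving out C66 -0.0097. On chip 3, leaving out 1 array gave -0.0036 to 0.096 for Xpo5 (below 0 without A46) and -0.028 to 0.090 for Dgcr8 (below 0 without C52 or A49). For chips 1 and 2 against chip 4, Rnasen at base 3918 was 0.14 with median scaling, 0.018 with array weights, 0.032 at odd positions and 0.040 without C66, Tarbp2 at base 1313 was 0.0024 with median scaling and 0.0052 at even positions, and Xpo5 was 0.039 with median scaling and 0.047 at even positions. Leaving out C66 as well, the random block gave 0.0071 for Tarbp2 at base 537, position alone -0.030 for Tarbp2 at base 1313, the block with position -0.039, -0.12, 0.079, -0.060, -0.11 and 0.0080 in the order above, and even positions 0.042 for Rnasen at base 3918 and 0.055 for Xpo5. The fixed block stayed at -0.19, 0.081 and 0.044, which leaving out C66 cannot change: these are the chip 3 differences, and C66 is on chip 4. Every one of these was uncalled, and apart from Tnrc6a so was its value in the report.

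The earlier transform called 557 of all tested probes higher and 507 lower over all arrays, against 866 and 813. Median scaling shifted the median difference of all tested probes to 0.06. What limits the rest is signal: 9 member probes did not pass the detection filter.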
